A study of Mus musculus with 6 samples.

Results

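The colony-stimulating factor (CSF) axis of microglia and other myeloid cells was described through 8 genes, chosen by their role and matched by symbol among the 54752 genes counted. They were the ligands Csf1 and Il34, the receptor genes Csf1r, Csf3r, Csf2ra, Csf2rb and Csf2rb2, and Spi1, the gene of the transcription factor PU.1. Right hippocampi, taken whole, were sequenced in 3 sham mice and 3 mice with bilateral carotid artery stenosis (BCAS), and all 8 genes passed the filter on low counts. Both groups were male C57BL/6 mice of genotype WT, labelled with a time of 14 weeks, which was taken as their age. BCAS mice had a microcoil placed around each common carotid artery, the narrower one on the right, the side that was sampled, and sham mice had the operation without microcoils. Tissue was taken 3 weeks after surgery, and each library came from 1 mouse, drawn at random from the group. The comparison asks how RNA of this axis differed in the hippocampus after reduced blood flow.

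CSF1R is a receptor tyrosine kinase on which microglia depend for survival and proliferation, and it is shared by CSF1 and IL-34, of which IL-34 is made in the forebrain mainly by neurons. CSF2RA binds granulocyte-macrophage CSF and signals together with the beta common chain encoded by Csf2rb, which also serves the receptors for IL-3 and IL-5, while its paralog in mice, Csf2rb2, encodes a beta chain for IL-3 alone. CSF3R is the receptor for granulocyte CSF and is best known from neutrophils, and PU.1 is an ETS-family factor needed to form macrophages and microglia that binds a purine-rich motif, the PU box. In bulk tissue, a change in the number of cells of a type and a change in RNA per cell cannot be told apart.

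Libraries held 29652456 to 35607098 counts, and 18617 genes were tested. Of these, 18.0% were higher and 13.2% lower in BCAS mice at an edgeR adjusted P under 0.05, and 8.47% were DEGs (differentially expressed genes) with a log2 fold change above 1, against 0.999% with one below -1. The median log2 fold change of all tested genes was 0.02. With library totals in place of TMM, 3859 genes were higher and 1788 lower in place of 3356 and 2463, and with TMM the number lower was 1449, 1412 and 1260 without sham mouse 1, 2 and 3. Without BCAS mouse 1, 2 and 3 that number was 1928, 3092 and 1766. The 7 hippocampal neuron markers summed to 978.1 to 1078 CPM in sham mice and 591.1 to 767.4 CPM in BCAS mice, but no other brain region was analysed here, so the tissue label was not checked against one. Levels are given as CPM, counts scaled to a common library total and normalized by TMM, with n = 3 mice per group, and P values measure only the spread between these mice. Choroid plexus RNA varied within both groups, with Ttr, its main marker, at 38.1 to 3773 CPM in sham mice and 23.7 to 5461 CPM in BCAS mice.

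Of the 8 genes, 7 were DEGs with higher RNA in BCAS mice, beside 8.47% of all tested genes, and none was a DEG with lower RNA with edgeR, DESeq2 or limma-voom. On the adjusted P alone, 1 of the 8 (Il34) was lower with DESeq2 and with limma-voom, and in edgeR it was lower at an unadjusted P under 0.05. In the same 7 genes every BCAS mouse lay above every sham mouse, a pattern found in 25.3% of all tested genes. The median log2 fold change over the 8 genes was 2.74. The rises ran from 2.36-fold for Csf2ra to 15.8-fold for Csf2rb, and Il34 alone was lower on average, without passing the adjusted P in edgeR. BCAS mouse 3 had the highest level of each of the 7 genes that rose and the lowest level of Il34.

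**Figure D1:**
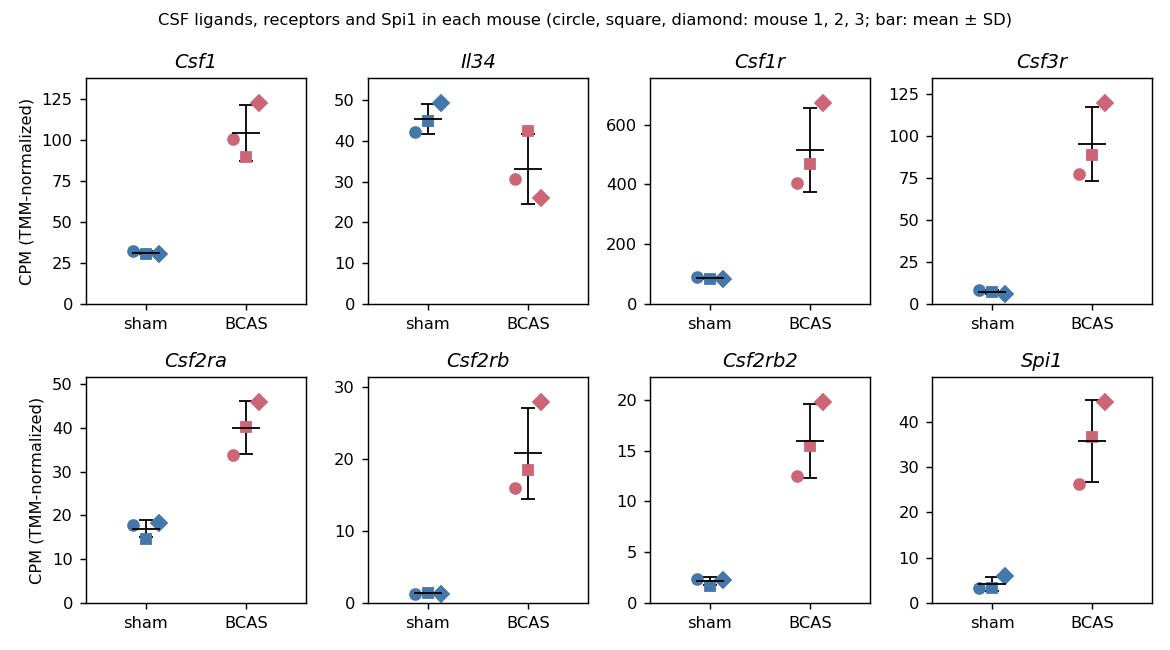
CPM of the 8 genes (vertical axes, each from 0) in 3 sham and 3 BCAS mice, with circle, square and diamond for mice 1, 2 and 3 and bars for the mean and SD. In 7 panels the BCAS points lie above all sham points, and in the Il34 panel BCAS mouse 2 at 42.5 CPM lies within the sham mice.

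Of the ligand genes, Csf1 rose and Il34 did not pass the edgeR test. Csf1, on chromosome 3 at chr3:107741048-107760469 of mm10 on the minus strand, stood at 32.1, 30.4 and 30.7 CPM in sham mice 1, 2 and 3 and at 100.6, 89.5 and 122.8 CPM in BCAS mice 1, 2 and 3. The lowest BCAS mouse was far above the highest sham mouse. The mean went from 31.1 ± 0.910 to 104.3 ± 17.0 CPM (n = 3 each, ± SD), with a log2 fold change of 1.75 (SE 0.11, 95% interval 1.49 to 2.01, edgeR adjusted P = 2.26e-05).

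Il34 (chr8:110741829-110805924, minus strand) was at 42.1, 44.9 and 49.4 CPM in the sham mice and at 30.7, 42.5 and 25.9 CPM in the BCAS mice. BCAS mice 1 and 3 were below all sham mice, whereas BCAS mouse 2 lay between sham mice 1 and 2, so the groups overlapped. The log2 fold change was -0.46 (SE 0.17, 95% interval -0.84 to -0.09), with an edgeR P of 0.0216 before and 0.0636 after adjustment. On the adjusted P alone the call depended on the tool and on single mice: it was 0.0209 with DESeq2, 0.0446 with limma-voom, 0.0108 with edgeR without the filter, and 0.00218 with edgeR when BCAS mouse 2 was left out. Without sham mouse 3 it rose to 0.19, and without BCAS mouse 3 the edgeR log2 fold change was -0.32. Il34 shares 22 and 75 exonic bases with the antisense genes Gm15894 and Gm15895, each with at most 22 counts in a library.

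Because genes differ in length, levels were compared between genes as CPM per kilobase of exon. In sham mice Csf1 reached 5.88 ± 0.172 and Il34 23.2 ± 1.88 CPM per kilobase, and in BCAS mice the 2 ligands stood at 19.7 ± 3.22 and 16.9 ± 4.37. The Csf1 to Il34 ratio per kilobase was 0.254 in the sham group and 1.18 in the BCAS group. On the log2 scale the ratio was -1.82, -1.99 and -2.12 in sham mice against 0.28, -0.36 and 0.81 in BCAS mice, so that per kilobase Il34 was still above Csf1 in BCAS mouse 2. This order rests on the exon lengths of 5281 bases for Csf1 and 1959 for Il34. By CPM, Csf1 was higher in that mouse, at 89.5 against 42.5. The log2 ratio differed by 2.22 between the groups and separated them fully, and its exact two-sided permutation P of 0.1 is the smallest that 3 mice against 3 can give.

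Csf1r was the most abundant of the 8 genes per kilobase in BCAS mice. The gene lies at chr18:61105572-61132149 on the plus strand. Its RNA stood at 89.5, 84.9 and 85.0 CPM in sham mice 1, 2 and 3 and at 404.4, 468.9 and 674.2 CPM in BCAS mice 1, 2 and 3. Sham mice were close together, while the BCAS mice spread widely above them, with mouse 3 at the top. The mean rose from 86.4 ± 2.64 to 515.8 ± 140.9 CPM, 5.97-fold, for a log2 fold change of 2.58 (SE 0.18, 95% interval 2.18 to 2.98, edgeR adjusted P = 2.62e-05). Strand was not used in the counting, and 871 exonic bases, 17.8% of the Csf1r exons, are shared with Hmgxb3 on the opposite strand, where reads that fit both genes were counted for neither. Hmgxb3 itself did not pass the test (log2 fold change -0.07, edgeR adjusted P = 0.588).

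Csf3r, at chr4:126024550-126044440 on the plus strand, stood at 8.18, 6.79 and 5.98 CPM in sham mice and at 77.1, 88.8 and 119.7 CPM in BCAS mice. Every BCAS mouse was several times above the highest sham mouse. The mean rose 13.6-fold from 6.98 ± 1.11 to 95.2 ± 22.0 CPM (log2 fold change 3.77, SE 0.19, 95% interval 3.34 to 4.19, edgeR adjusted P = 1.16e-05), and 99.0% of tested genes had a smaller log2 fold change. Neutrophil markers were low beside it, and Ly6g had no count in any library, which allows up to 3 counts or 0.0875 to 0.0995 CPM per library and covers counting error only. The 11 neutrophil markers summed to 0.928 to 3.50 CPM in sham mice and 1.05 to 4.31 CPM in BCAS mice, and neither of the 2 that passed the filter passed the edgeR test (S100a9 with an adjusted P of 0.202 and Mmp8 with 0.502). The sum joins markers that moved in opposite directions. S100a8 had 2, 4 and 9 counts in sham mice and 5, 36 and 24 in BCAS mice. Cxcr2 had 0, 4 and 0 against 2, 20 and 15. In contrast, Ngp went from 19, 6 and 25 to 4, 0 and 0 counts, and Camp from 8, 0 and 13 to 0, 0 and 2. S100a8, Cxcr2, Ngp and Camp did not pass the filter, so their changes were not tested.

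Part of the Csf3r promoter that holds a PU box is shown here beside those of Csf2rb2 and Csf2ra, because PU.1 is among the genes described and the letters of its motif can be read directly. The PU box was searched as GAGGAA on both strands, so that TTCCTC counts as a match on the opposite strand, and no match described here overlaps another. The windows, from RefSeq promoters of GRCm38.p6 (250 bases before to 50 after the start), are written 5′ to 3′ on the strand of the gene with 1 match in capitals. Of 32851 promoters of this length, 28.3% hold the motif. Promoters of 4 of the 8 genes were in the table (Csf1, Csf3r, Csf2ra and Csf2rb2), and 3 of them held it. The windows are at chr4:126024561-126024590 for Csf3r on the plus strand, chr15:78305871-78305900 for Csf2rb2 on the minus strand and chr19:61228415-61228444 for Csf2ra on the minus strand.
Csf3r: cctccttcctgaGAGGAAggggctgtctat
Csf2rb2: ctctgtgtctgcTTCCTCcagagaagtcag
Csf2ra: caacctgcagatGAGGAAgaggaagcggga
Counted from the RefSeq start of each gene, the first base in capitals is 86 bases before the start in Csf3r, 167 before it in Csf2rb2 and 14 before it in Csf2ra. For Csf3r the RefSeq start lies downstream of the start in the annotation of the files, so that its window falls inside the gene span given above. Csf2rb2 has a further match 30 bases after the start, and Csf2ra has one 8 bases before it, directly after the match in capitals and in lower case in the window shown. These letters are not in the Csf1 window. A match describes the sequence and does not show binding.

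The ligands of these receptors other than Csf1 and Il34 were hardly seen. Csf2, which encodes granulocyte-macrophage CSF, had 2 counts in BCAS mouse 3 and none elsewhere, and Csf3, which encodes granulocyte CSF, had 1 count in sham mouse 1 and 1 in BCAS mouse 2. Il3 had no count in any library. Il5 had 5, 7 and 5 counts in sham mice and 10, 4 and 3 in BCAS mice.

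The receptor chains for granulocyte-macrophage CSF rose to different degrees. Csf2ra (chr19:61224402-61228418, minus strand) stood at 17.7, 14.7 and 18.3 CPM in sham mice and at 33.9, 40.1 and 46.0 CPM in BCAS mice. Every BCAS mouse was above every sham mouse. Its log2 fold change of 1.24 (SE 0.14, 95% interval 0.93 to 1.55, edgeR adjusted P = 2.66e-04) was the smallest among them, and the interval reached below 1.

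Csf2rb (chr15:78325752-78353847, plus strand) had 44, 45 and 44 counts in the sham mice against 516, 555 and 871 in the BCAS mice. This equals 1.30, 1.35 and 1.28 CPM against 15.9, 18.4 and 27.9 CPM, a change from barely present to well detected in each BCAS mouse. The log2 fold change of 3.98 (SE 0.24, 95% interval 3.44 to 4.52, edgeR adjusted P = 1.80e-05) was the largest of the 8 genes.

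Csf2rb2 is the neighbour of Csf2rb on the opposite strand (chr15:78282507-78305721), 20031 bases away. It had 81, 57 and 79 counts in the sham mice against 408, 468 and 619 in the BCAS mice, or 2.39, 1.71 and 2.30 CPM against 12.6, 15.5 and 19.9 CPM. The BCAS mice were again all above the sham mice. The log2 fold change was 2.90 (SE 0.22, 95% interval 2.41 to 3.39, edgeR adjusted P = 3.74e-05).

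These paralogs are near-identical, which bears on how reads could be assigned to them. In GENCODE M21 transcripts (GRCm38), the coding sequences of 2691 bases for Csf2rb and 2637 bases for Csf2rb2 shared 95.2% of 2631 aligned positions, and the longest identical run was 242 bases, longer than a read of 150. Of all 150-base windows of the Csf2rb coding sequence, 6.49% occur unchanged in that of Csf2rb2, and of all 50-base windows 26.0%. Reads that aligned to several places were not counted, so the counts of both genes are uncertain, and the share of their reads lost in this way was not measured. Below is the 60-base window that differs most, with the 13 differing bases in capitals, from coding position 304 of Csf2rb (chr15:78338893-78338952, plus strand) and 307 of Csf2rb2 (chr15:78294379-78294438, minus strand), as an example of sequence by which reads can be told apart.
Csf2rb: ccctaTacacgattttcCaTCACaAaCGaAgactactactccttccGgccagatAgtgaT
Csf2rb2: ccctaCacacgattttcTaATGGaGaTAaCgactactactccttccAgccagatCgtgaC
Per kilobase, Csf2rb2 was 2.43 times as abundant as Csf2rb in sham mice, against 1.20 times after BCAS. The log2 ratio was 1.47, 0.95 and 1.43 in sham mice against 0.28, 0.37 and 0.13 in BCAS mice, without overlap (difference -1.02, exact two-sided permutation P = 0.1, the smallest possible). The other chains that pair with the beta chains bind IL-3 and IL-5: Il3ra rose (log2 fold change 1.86, edgeR adjusted P = 5.93e-04) from 1.89 ± 0.552 to 6.88 ± 0.657 CPM, and Il5ra had no count in the sham mice and 6, 2 and 3 in the BCAS mice.

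Spi1 (chr2:91082390-91115756, plus strand) was at 3.25, 3.32 and 5.89 CPM in sham mice and at 26.4, 36.7 and 44.5 CPM in BCAS mice. Sham mouse 3 stood above the other sham mice, and all BCAS mice were well above it. The mean rose 8.62-fold from 4.15 ± 1.50 to 35.9 ± 9.11 CPM (log2 fold change 3.11, SE 0.27, 95% interval 2.49 to 3.73, edgeR adjusted P = 8.15e-05). The interval was the widest of the 8 genes. The log2 ratio of Csf1r to Spi1 per kilobase was 3.56 ± 0.504 in sham mice against 2.98 ± 0.147 in BCAS mice, and the groups overlapped (difference -0.57, exact two-sided permutation P = 0.3). The overlap came from sham mouse 3, at 2.98 against 3.90 and 3.79 in the other sham mice. Without it the difference was -0.86 (exact permutation P = 0.1, the smallest possible). As this mouse was the source of the overlap, the groups had to separate without it, and this P decides nothing. Leaving out any other single mouse gave -0.62 to -0.40 (exact permutation P = 0.3 to 0.4).

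**Figure D2:**
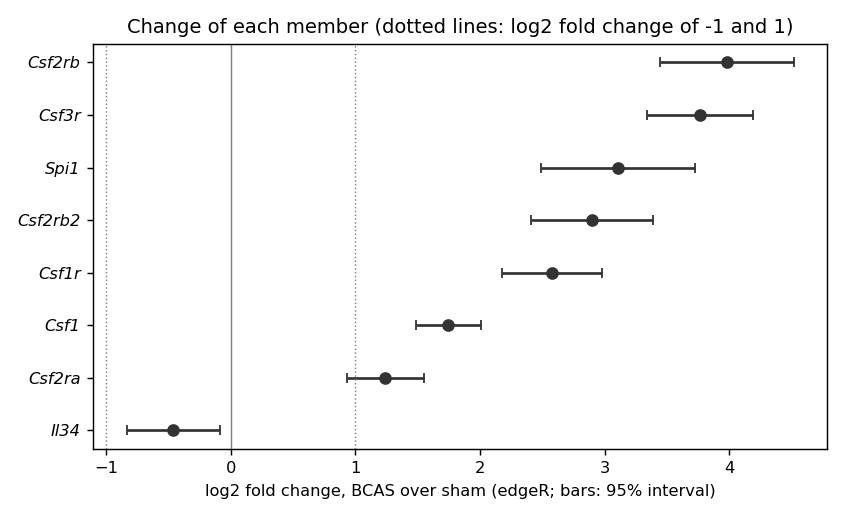
Log2 fold change of each gene, BCAS over sham, from edgeR (horizontal axis; points are estimates and bars 95% intervals), with dotted lines at -1 and 1. The 7 rises run from 1.24 for Csf2ra to 3.98 for Csf2rb, the Csf2ra interval reaches below 1, and the Il34 interval lies between -0.84 and -0.09.

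The order of the 8 genes by CPM per kilobase differed between the groups. In sham mice it was Il34 at 23.2, Csf1r at 17.7, Csf2ra at 9.14, Csf1 at 5.88, Csf3r at 1.94, Spi1 at 1.54, Csf2rb2 at 0.450 and Csf2rb at 0.180. Csf3r and Spi1 overlapped among the neighbours in this order. Il34 and Csf1r did not, but without the exonic bases shared with Hmgxb3 in its length Csf1r reached 22.3, 21.2 and 21.2 CPM per kilobase in sham mice, which overlaps Il34 at 21.5 to 25.2, so their order is not resolved. The order in BCAS mice was Csf1r at 105.6, Csf3r at 26.4, Csf2ra at 21.6, Csf1 at 19.7, Il34 at 16.9, Spi1 at 13.3, Csf2rb2 at 3.37 and Csf2rb at 2.85. Each neighbouring pair from Csf3r to Spi1 overlapped, as did Csf2rb2 and Csf2rb, so their order in BCAS mice is not resolved. Csf1r stood apart from the others, with 82.8 CPM per kilobase in its lowest BCAS mouse against 33.2 in the highest mouse of Csf3r.

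**Figure D3:**
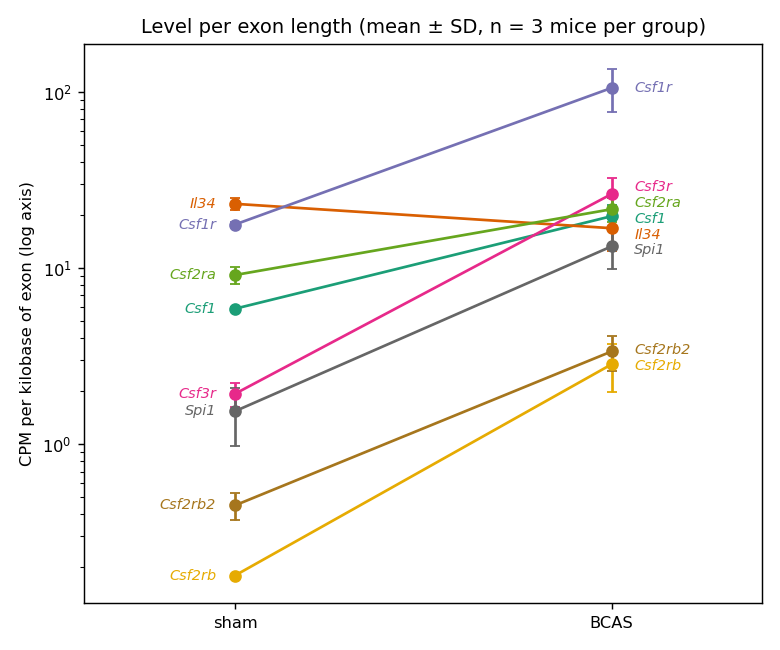
Mean CPM per kilobase of exon (vertical log axis) of the 8 genes in sham and BCAS mice, with SD bars for n = 3 mice per group. Il34 has the highest mean in sham mice and is the one line that slopes down, Csf1r leads in BCAS mice, and the mean of Csf3r moves from place 5 to place 2.

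Since most of these genes are known from microglia, each was set against 12 microglia markers in the same mouse, as its log2 CPM minus the mean log2 CPM of the markers. All 12 markers were DEGs with higher RNA in BCAS mice, beside 8.47% of all tested genes, among them Aif1, which encodes Iba-1 (log2 fold change 3.14), Cx3cr1, the fractalkine receptor (2.73), P2ry12, a purine receptor of resting microglia (1.54) and Tmem119 (2.02). Summed, they went from 321 to 343 CPM in sham mice to 1678 to 2717 CPM in BCAS mice, and their mean log2 CPM rose by 2.45. Csf1r lay 1.96, 1.98 and 1.92 above the marker mean in sham mice and 1.98, 2.15 and 2.02 above it in BCAS mice (difference 0.09, exact two-sided permutation P = 0.2, groups overlapping).

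Csf2rb and Csf3r were higher against the markers in every BCAS mouse than in any sham mouse. Relative to the marker mean, Csf2rb was higher by 1.43 and Csf3r by 1.29 on the log2 scale in BCAS mice, and Csf2rb2 by 0.41. These groups did not overlap (exact two-sided permutation P = 0.1 each, the smallest possible). Spi1 was higher by 0.66, but sham mouse 3 overlapped with the BCAS mice (exact permutation P = 0.2). Csf2ra at -1.22, Csf1 at -0.72 and Il34 at -2.94 were lower against the markers in each BCAS mouse (exact permutation P = 0.1 each). With the 8 comparisons in this family, no adjusted P could pass 0.05 in this design.

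**Figure D4:**
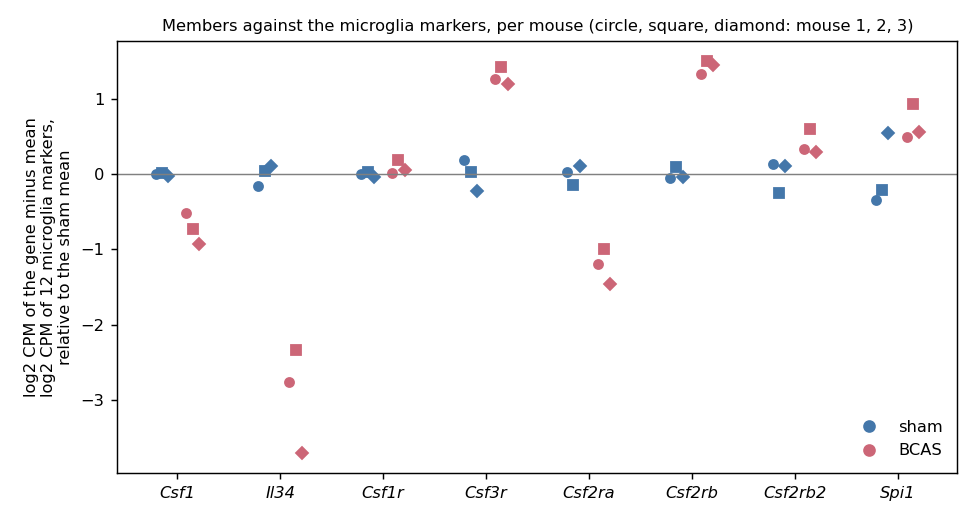
Log2 CPM of each gene minus the mean log2 CPM of 12 microglia markers, centred on the sham mean (vertical axis), for 3 sham and 3 BCAS mice, with circle, square and diamond for mice 1, 2 and 3. The Csf1r points of both groups overlap, Csf2rb, Csf3r and Csf2rb2 lie above the sham mice, and Csf1, Csf2ra and Il34 lie below them in all BCAS mice.

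Neuron and astrocyte markers were used in the same way, a step added after the values were seen. Of the 8 neuron markers, 7 were lower in BCAS mice past the adjusted P in edgeR, beside 13.2% of all tested genes. Their sum went from 6428 to 7163 CPM in sham mice to 3530 to 5213 CPM in BCAS mice. The mean log2 CPM of the 8 markers fell by 0.59. Against this mean, Il34 lay at -3.67, -3.64 and -3.57 in sham mice and -3.64, -3.32 and -3.61 in BCAS mice (difference 0.10, exact two-sided permutation P = 0.6). Against the 7 astrocyte markers, whose mean log2 CPM rose by 1.11, Csf1 was higher by 0.62 in BCAS mice without overlap (exact permutation P = 0.1), and Csf2ra by 0.12 with overlap (exact permutation P = 0.4). The size of these differences depended on Gfap. Without it (chosen after seeing the data) the marker mean rose by 0.75, Csf1 was higher by 0.99 and Csf2ra by 0.49, both without overlap (exact permutation P = 0.1 each).

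RNA of some other cell types moved with the groups as well, and the counts of DEGs in this paragraph stand beside 8.47% of all tested genes. Of the 7 markers of border-associated macrophages, 5 were DEGs with higher RNA in BCAS mice, and their sum went from 10.5 to 14.9 CPM in sham mice to 29.2 to 37.4 CPM in BCAS mice. Of the 6 monocyte markers, 5 were tested and 3 were DEGs (Ly6c2, Ccr2 and Plac8), with sums of 26.2 to 29.5 CPM in sham mice and 34.8 to 42.2 CPM in BCAS mice. Most of these sums was Ly6c1, at 25.1 to 28.5 CPM in sham mice and 29.1 to 31.8 CPM in BCAS mice, which did not pass the test (log2 fold change 0.20, edgeR adjusted P = 0.139). Ccr2, the monocyte chemokine receptor, stood at 0.501 ± 0.0722 and 4.36 ± 1.30 CPM, and Ly6c2 had 0, 1 and 0 counts in sham mice. Of the 6 T and NK cell markers, 5 were tested and 4 were DEGs upward, with sums of 0.649 to 1.47 CPM in sham mice and 6.23 to 7.63 CPM in BCAS mice. Of the 4 meningeal fibroblast markers, 3 rose, beside 18.0% of all tested genes, and 2 (Col1a1 and Col3a1) were DEGs. Their sums of 63.9 to 137.6 CPM in sham mice and 133.9 to 262.8 CPM in BCAS mice overlapped. Of the 7 endothelial and mural markers, 5 rose and 1 was a DEG, with sums of 209.3 to 234.4 CPM and 289.9 to 341.3 CPM. Of the 3 oligodendrocyte precursor markers, 2 rose and 0 were DEGs, with sums of 119.8 to 133.5 CPM and 148.8 to 181.2 CPM. The sums of the dendritic cell and oligodendrocyte markers also overlapped between the groups. The 6 dendritic cell markers (5 tested, 1 DEG) summed to 15.1 to 19.5 CPM in sham mice and 16.5 to 19.6 CPM in BCAS mice. Most of these sums was Zbtb46, with means of 8.97 and 9.41 CPM, and Flt3, with 7.73 and 6.28 CPM. The DEG was Xcr1, higher in BCAS mice at means of 0.0491 and 0.341 CPM, and the other tested markers did not pass the test. Ccr7, not tested, had 2, 0 and 4 counts in sham mice and 7, 34 and 25 in BCAS mice. The 6 oligodendrocyte markers summed to 5092 to 6256 CPM and 5840 to 8796 CPM, with log2 fold changes of -0.04 to 0.42. In the lists of this paragraph no marker was at 0 in all libraries. The part of these cells in the rises of the receptor genes and Spi1 was not tested.

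Other receptors of IL-34 and the proteases that cut CSF1R from the cell surface rose modestly. All 4 genes of this list passed the adjusted P upward, beside 18.0% of all tested genes, and 2 were DEGs, beside 8.47%, with a median log2 fold change of 0.84. Ptprz1, a receptor phosphatase that binds IL-34, had a log2 fold change of 0.42 (edgeR adjusted P = 0.00645), and the syndecan gene Sdc1 had one of 1.27 (0.0112) at 1.72 ± 0.430 and 4.15 ± 1.19 CPM. Adam17, the main protease that sheds CSF1R, went from 18.0, 17.9 and 15.9 CPM in sham mice to 37.7, 41.7 and 58.3 CPM in BCAS mice (log2 fold change 1.41, edgeR adjusted P = 3.22e-04). Its relative Adam10 showed 0.37 (edgeR adjusted P = 0.00767).

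Of the 10 other CSF family ligands and receptors, 5 passed the filter, with 1 higher (Il3ra) and 1 lower, beside 18.0% and 13.2% of all tested genes, and a median log2 fold change of 0.28. The lower one was Kit, the receptor tyrosine kinase for stem cell factor, at 118.3, 114.2 and 117.6 CPM in sham mice and 85.1, 85.9 and 60.6 CPM in BCAS mice (log2 fold change -0.60, edgeR adjusted P = 0.00776). Its ligand gene Kitl had a log2 fold change of 0.28, the receptor gene Flt3 one of -0.30 and its ligand gene Flt3l one of 0.46, and none of the 3 passed the test (edgeR adjusted P = 0.198, 0.154 and 0.121).

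Downstream of CSF1R, 14 of 23 signal transduction genes rose and 1 fell in edgeR, and 8 of 23 were DEGs with higher RNA (median log2 fold change 0.46), beside 18.0% higher, 13.2% lower and 8.47% DEGs upward among all tested genes. The DEGs are genes best known from blood and immune cells: Fgr, a Src-family kinase of myeloid cells, rose from 4, 6 and 2 counts in sham mice to 213, 220 and 304 counts in BCAS mice (log2 fold change 6.01), and Tyrobp, the DAP12 adaptor, from 7.84 ± 0.423 to 125 ± 27.4 CPM (3.99). Plcg2 (2.29), the kinase gene Syk (2.45), Lyn, Ptpn6 and Inpp5d were also among them. Pik3cd, the leukocyte PI3-kinase subunit, rose by less (log2 fold change 0.75, edgeR adjusted P = 0.00152). Shc1 (0.99), Gab2 (0.69), Pik3r1 (0.46), Gab1 (0.43) and Cbl (0.28), which many cell types express, also rose without being DEGs. The adaptor gene Grb2 had a log2 fold change of -0.16 and did not pass the test (edgeR adjusted P = 0.0929).

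Downstream of the beta chains, 6 of 10 JAK2-STAT5 signalling and feedback genes rose in edgeR, beside 18.0% of all tested genes, with a median log2 fold change of 0.72. The number that fell was 0 with edgeR, DESeq2 and limma-voom, and 1 at an unadjusted edgeR P under 0.05. The kinase gene Jak2 itself rose slightly (log2 fold change 0.29, edgeR adjusted P = 0.0184), and the transcription factor genes Stat5a and Stat5b rose by 1.77 and 0.74. Socs3, a feedback inhibitor of cytokine receptors, rose from 1.95, 1.92 and 1.69 CPM in sham mice to 8.13, 12.8 and 18.7 CPM in BCAS mice (log2 fold change 2.83, edgeR adjusted P = 1.94e-04). Cish, a classical STAT5 target, did not pass the test (0.44, edgeR adjusted P = 0.277). The 4 DEGs of this list, beside 8.47% of all tested genes, were Stat5a, Socs3, Stat3 and Socs1, and without BCAS mouse 3 only 2 remained, since Stat3 went from 1.04 to 0.89 and Socs1 from 1.04 to 0.95 on the log2 scale. Stat3 also dropped below a log2 fold change of 1 without sham mouse 3 (0.99), and Socs1 lost its call without sham mouse 1 (edgeR adjusted P = 0.0575), sham mouse 2 (0.0641) or BCAS mouse 2 (log2 fold change 0.91).

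Among 22 other transcription factor genes of the myeloid lineage, 17 passed the filter, 13 rose and 9 were DEGs (median log2 fold change 1.68), beside 18.0% and 8.47% of all tested genes. The number that fell was 0 with edgeR and limma-voom and 1 with DESeq2, and 1 was lower at an unadjusted edgeR P under 0.05. Sall1 is also among the microglia markers. Irf8, a partner of PU.1, rose from 5.51 ± 0.901 to 89.1 ± 27.1 CPM (log2 fold change 4.02, edgeR adjusted P = 1.60e-05), and Runx1 from 0.906 ± 0.0355 to 12.7 ± 4.24 CPM (3.80, edgeR adjusted P = 3.29e-05). Cebpa rose by 2.05 and the microglial factor gene Sall1 by 1.87 on the log2 scale. Mef2c, which neurons also express, ranged from 172 to 244 CPM in sham mice and 189 to 441 CPM in BCAS mice and did not pass the test (0.55, edgeR adjusted P = 0.153).

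Textbook targets of PU.1 were all 16 tested and all 16 DEGs with higher RNA, beside 8.47% of all tested genes, with a median log2 fold change of 3.46. These are themselves genes of myeloid cells, like the microglia markers, and Mrc1 also stands in the list of border-associated macrophages. Lyz2, which encodes lysozyme, rose most (log2 fold change 4.88, 226.8 to 451.2 CPM in BCAS mice against 9.76 to 13.7 in sham mice), followed by the lysosomal marker Cd68 (4.17). Itgam, the CD11b integrin, rose by 3.01 and Cybb, the catalytic NADPH oxidase subunit, by 3.97. Il1b had overlapping groups, with 14 counts in BCAS mouse 1 against 23 in sham mouse 1. Its call (log2 fold change 2.42, edgeR adjusted P = 0.0318) was lost with limma-voom (adjusted P = 0.126), and in edgeR without sham mouse 2 (0.0972), sham mouse 3 (0.117), BCAS mouse 2 (0.0656) or BCAS mouse 3 (0.0995).

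**Figure D5:**
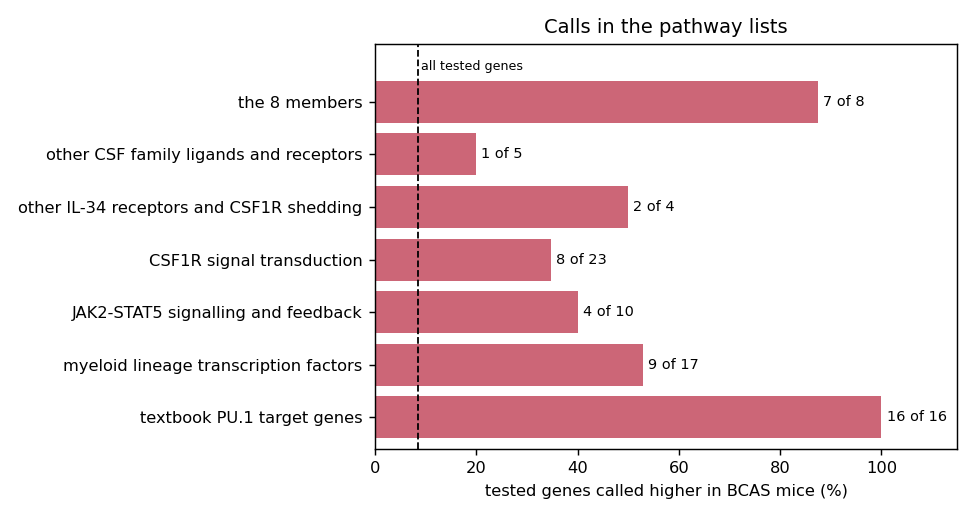
Share of tested genes that were DEGs with higher RNA in BCAS mice (horizontal axis, %) in the 8 genes and 6 pathway lists, with counts at the bars and the share among all tested genes, 8.47%, as a dashed line. The share runs from 1 of 5 for the other CSF family genes to 16 of 16 for the PU.1 targets.

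The genes most alike to 4 of the 8 genes were sought among 15623 genes with a mean of at least 1 CPM, by Pearson's r of log2 CPM over the 6 libraries. Such values mostly follow the group difference that the points share and are given as a description. Closest to Csf1r were Nckap1l (r = 0.9998), Vsir, Dock2, Gsap and Mlxipl, and closest to Spi1 were Anxa2 (r = 0.9987), Tec, Smagp, Cd48 and Cybc1. Closest to Csf1 were S1pr3 (r = 0.9998), Uba7, Pnpla7, Cx3cr1 and Rasal3. Il34 was most like Actr1a (r = 0.9992), Csrnp2, Ephb6, Pdxp and Clstn1. An r above 0.95 was reached by 1689 genes for Csf1r, 1320 for Spi1, 1696 for Csf1 and 601 for Il34.

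Genes next to the 8 on the chromosome mostly changed less. Pdgfrb and Slc26a2 beside Csf1r had log2 fold changes of 0.65 and 0.50 (edgeR adjusted P = 0.00388 and 0.0176), and Slc39a13 beside Spi1 had 0.34 (0.0211). Ahcyl1 beside Csf1, Mtss1l and Sf3b3 beside Il34 and Grik3 and Mrps15 beside Csf3r did not pass the test, with log2 fold changes from -0.17 to 0.14. The exception was Ncf4, 19927 bases from Csf2rb2, an NADPH oxidase subunit gene of phagocytes that rose from 0.760 ± 0.190 to 8.30 ± 3.01 CPM (log2 fold change 3.44, edgeR adjusted P = 1.36e-04). Eps8l3, Mybpc3, Tex33, Gm6020 and Gm21060 had too few counts to be tested.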

How the data were processed

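Libraries from total RNA of the right hippocampus of 3 sham and 3 BCAS mice were assigned to groups by their labels. Trimming, alignment to mm10 with HISAT2 and counting on exons with featureCounts were done by the authors, who deposited raw counts per gene. The file headers name featureCounts 2.0.3 and a GENCODE annotation (the methods, 1.6.3 and RefSeq), count both mates of a pair, ignore strand and leave out reads that align to several places or fit several genes. Symbols were missing for 29 of 54752 genes. Mice are numbered by the labels, whereas the headers of the BCAS files number them 2 to 4, so the block rests on the labels' numbers. The members and gene lists were chosen with earlier results of these data known.

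Counts were filtered (filterByExpr), TMM-normalized and tested with edgeR 4.0.16 (quasi-likelihood, BCAS against sham) in R 4.3.3, with Benjamini-Hochberg adjustment over 18617 genes. The thresholds for DEGs were those of the study, 0.05 for the adjusted P and 1 for the absolute log2 fold change. Log2 CPM used a prior count of 2. The common biological coefficient of variation was 0.161, TMM factors were 0.964 to 0.984 in sham and 1.01 to 1.05 in BCAS libraries, and a floor of 3 counts equalled 0.0875 to 0.0995 CPM. Single values were compared by an exact two-sided permutation test. Named genes were the 8 members, all genes of the other CSF family and IL-34 receptor lists, a set of signalling, lineage and marker genes, the 2 largest rises and falls past the adjusted P in each other pathway list, the 5 most alike genes for 4 members, and neighbouring or overlapping genes. Lyn, Ptpn6, Inpp5d, Shc1, Gab1, Gab2, Pik3r1, Cbl, Ly6c1, Socs1, Il1b, S100a8, S100a9, Mmp8, Cxcr2, Ngp, Camp, Zbtb46, Xcr1, Ccr7, Col1a1, Col3a1, Gfap, Ly6g, Ccr2, Ly6c2, Plac8 and Ttr were named after their values were seen. Some genes under this rule are not reported here. Alternatives were DESeq2 1.42.0, limma-voom 3.58.1, other normalizations and filters, a replicate block, halved counts and leaving out each mouse. The fits were tested on simulated data. Mice with the same number did not deviate together (correlation of residuals 0.036, -0.314 and -0.158).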

Additional observations from a re-analysis of the deposited data

How the results depend on the processing

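All 8 genes kept their direction under every alternative run, and 7 DEGs with higher and 0 with lower RNA were found with each tool, normalization and filter and without each mouse. With all mice, log2 fold changes ranged from 1.73 to 1.83 for Csf1, -0.49 to -0.39 for Il34, 2.54 to 2.66 for Csf1r, 1.22 to 1.32 for Csf2ra, 3.93 to 4.06 for Csf2rb, 2.88 to 2.98 for Csf2rb2, 3.75 to 3.85 for Csf3r and 3.09 to 3.19 for Spi1. Leaving out each mouse gave 2.33 to 2.72 for Csf1r, 2.92 to 3.45 for Spi1 and -0.69 to -0.32 for Il34, whose adjusted P then ran from 0.00218 to 0.19. The number of all genes called lower went from 186 to between 96 (without BCAS mouse 3) and 238 (without BCAS mouse 1), with 117 without sham mouse 3, and the cause was not tested. JAK2-STAT5 genes called higher fell from 4 to 2 without BCAS mouse 3. With the replicate number as a block, 1437 genes were called higher and 158 lower in place of 1576 and 186, Csf1r was at 2.54, Spi1 at 3.13 and Il34 at -0.49 (adjusted P = 0.0741), and 7 members were still called higher. Only Il1b lost its call among the pathway genes under the block (edgeR adjusted P = 0.121). Comparing only the mice with the least Ttr, BCAS mouse 2 against sham mouse 3 (added after seeing the data), gave 2.46 for Csf1r, 3.78 for Csf2rb, 3.88 for Csf3r, 2.63 for Spi1 and -0.22 for Il34, with no test. Without the bases shared with Hmgxb3 in its length, a choice made after seeing the data, the mean of Csf1r went from 17.7 to 21.5 CPM per kilobase in sham mice and from 105.6 to 128.5 in BCAS mice. The difference of Csf1r from the microglia markers ranged from 0.01 to 0.19 over all alternatives. Csf2, Csf3 and Il3 lay at or under the floor of 3 counts per library, so a change in them was not detectable at this depth.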
